A study of Mus musculus with 9 samples.

Results

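The genes for the proteins of the cytosolic ribosome were followed in the quadriceps muscle of Gaa knockout mice. Gaa encodes acid alpha-glucosidase, which breaks down glycogen in lysosomes and whose loss causes Pompe disease. The members were taken by name: symbols that start with Rps or Rpl and a number, Rplp0 to Rplp2 and Rpsa, without the S6 kinases, the names that mark pseudogenes with -ps and a number, and names with an l1 tag. Of the 13116 genes measured, the rule found 87. Of these, 77 are standard genes, 31 for the small and 46 for the large subunit. Another 9 are paralogs or copies (Rpl3l, Rpl36al, Rps27l, Rps4l, Rps27rt, Rpl37rt, Rpl39-ps, Rps3a2 and Rps3a3). The last, Rps19bp1, fits the name rule but encodes a protein that binds Rps19 and is not part of the ribosome.

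Messenger RNA was sequenced in 9 libraries from male mice of 18 months, 3 a group, taken here as 1 mouse each. KO_PBS were Gaa knockout mice injected with PBS into a vein of the tail when 9 months old. KO_secGAA were knockout mice that received, at the same age, AAV8-sp7-delta8-hGAAco, a vector for a secreted human acid alpha-glucosidase, which the series title places in the liver. WT_PBS were wild-type mice given PBS. All muscles were collected 9 months after injection; the strain and the knockout allele were not given in the sources used here. No group received a vector without the enzyme gene, so the vector and the enzyme it makes cannot be told apart. No wild-type group received the vector.

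The cytosolic ribosome joins a small subunit, which reads the messenger RNA, to a large subunit, which forms the peptide bond. Each subunit needs its proteins in nearly equal numbers, and their genes are usually transcribed together at high levels in every cell. Most of their messenger RNAs begin with a C and a run of pyrimidines, the 5′ terminal oligopyrimidine tract, through which the mTORC1 kinase controls their translation. In striated muscle the large subunit protein Rpl3 is in part replaced by its paralog Rpl3l, which is made in skeletal muscle and heart.

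The value of a gene is its number of reads per 1000000 of a scaled library size, called a normalized value here. Reads in the table ranged from 9299156 to 14355201 in KO_PBS, from 10495715 to 14406655 in KO_secGAA and from 15477523 to 15957106 in WT_PBS, so the wild-type libraries were the deepest. Gaa itself stood at 17.8, 14.5 and 14.02 in KO_PBS, at 15.1, 15.6 and 16.6 in KO_secGAA and at 296, 129 and 264 in WT_PBS. Both knockout groups lay far below wild type, and the human transgene was not counted separately. One library stands apart for the ribosomal protein genes: KO_secGAA 1 lay below the other treated libraries, as described with the results it touches.

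The start of the transcript was examined first, because the tract lies there. RefSeq promoters (build GRCm38.p6) were at hand for 63 of the 87 members. A run of C followed by at least 4 further C or T, beginning within 5 bases of the annotated start on the gene's strand, was found in 29 of the 63 (46.0%), against 21.2% of the 27025 genes of the promoter table. On the opposite strand the shares were 15.9% and 24.4%. The letters describe an annotated start and not the start used in this muscle. The windows below hold 15 bases before the annotated start and 15 from it onward, with the run in capitals. Rpl13a, Rpl19 and Rps15a are shown because they rose in KO_PBS, and Rps6 because its protein is the classical target of the S6 kinases. Rpl19 has a second listed start, which is not shown. In its window below, the run lies wholly before the annotated start.
Rpl13a, chr7:45128731-45128760, minus strand: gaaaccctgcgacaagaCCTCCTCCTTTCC
Rpl19, chr11:98026695-98026724, plus strand: tgaccaaacgCCCTCactgcgcatgtgcgc
Rps15a, chr7:118116133-118116162, minus strand: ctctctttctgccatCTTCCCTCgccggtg
Rps6, chr4:86857353-86857382, minus strand: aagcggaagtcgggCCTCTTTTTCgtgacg

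The next 3 windows hold no such run. Rpl23 and Rps4x also rose in KO_PBS, and Rpl3l, the muscle paralog, fell. Rpl3l has a second listed start, also without a run, which is not shown.
Rpl23, chr11:97782425-97782454, minus strand: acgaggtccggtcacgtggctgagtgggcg
Rps4x, chrX:102189377-102189406, minus strand: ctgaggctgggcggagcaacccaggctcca
Rpl3l, chr17:24727811-24727840, plus strand: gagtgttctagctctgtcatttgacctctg

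Among members with a promoter in the table, the run was present in 3 of the 9 that rose in KO_PBS and in 24 of the 49 standard members that did not pass. These are shares of 33.3% and 49.0%, and the difference was not tested.

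Ribosomal protein genes were higher in KO_PBS than in WT_PBS muscle, by a small amount that nearly all standard members shared. Fold changes below are log2 differences of group means on log2(value + 0.5), and a gene rose or fell where its adjusted p in limma, over all 13089 genes tested, was under 0.05. All 87 members were tested. Of these, 14 rose, 1 fell and 72 did not pass, where 10.9% of all genes tested rose and 11.0% fell. The median member stood 0.24 above WT_PBS on the log2 scale, and the median of all genes at 0.01. The 3 KO_PBS mice all lay above the 3 WT_PBS mice for 54 of 87 members, or 62.1%, where this held for 20.7% of all genes. The number that rose rests on single libraries. It was 3 (3.45%) without WT_PBS 3, where 6.94% of all genes rose, and 3 (3.45%, against 7.16%) without KO_PBS 2. It was 4 (4.6%, against 8.36%) without WT_PBS 2, 5 (5.75%, against 9.29%) without KO_PBS 1 and 6 (6.9%, against 9.27%) without WT_PBS 1. In each of these fits the share of members was below that of all genes. Without KO_PBS 3 the number was 8 (9.2%, against 8.5%). Without KO_secGAA 1, which shares only the estimate of spread, it was 31 (35.6%, against 10.9%). Without KO_secGAA 2 or KO_secGAA 3 it was 13 (14.9%), against 10.4% and 11.0%. The median member stayed between 0.22 and 0.28 in all 9 fits that left out a library.

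Both subunits were higher in KO_PBS by similar amounts. Of the 31 small subunit genes 6 rose and 30 lay above 0, with a median log2 fold change of 0.27. Of the 46 large subunit genes 7 rose and 40 lay above 0, with a median of 0.22. The normalized values of the small subunit genes summed to 7624, 7567 and 6952 in KO_PBS, to 6256, 7730 and 7283 in KO_secGAA and to 6093, 6260.2 and 6191 in WT_PBS. Those of the large subunit genes summed to 10922, 10569.8 and 9878 in KO_PBS, to 8136, 10413 and 10598 in KO_secGAA and to 8858, 9198 and 9201 in WT_PBS. Each KO_PBS library exceeded each WT_PBS library in both sums, and KO_secGAA 1 had a large subunit sum below all WT_PBS libraries. As a share of all reads, the standard genes took 1.97 to 2.01% in KO_PBS, 1.49 to 1.83% in KO_secGAA and 1.34 to 1.39% in WT_PBS.

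**Figure D1:**
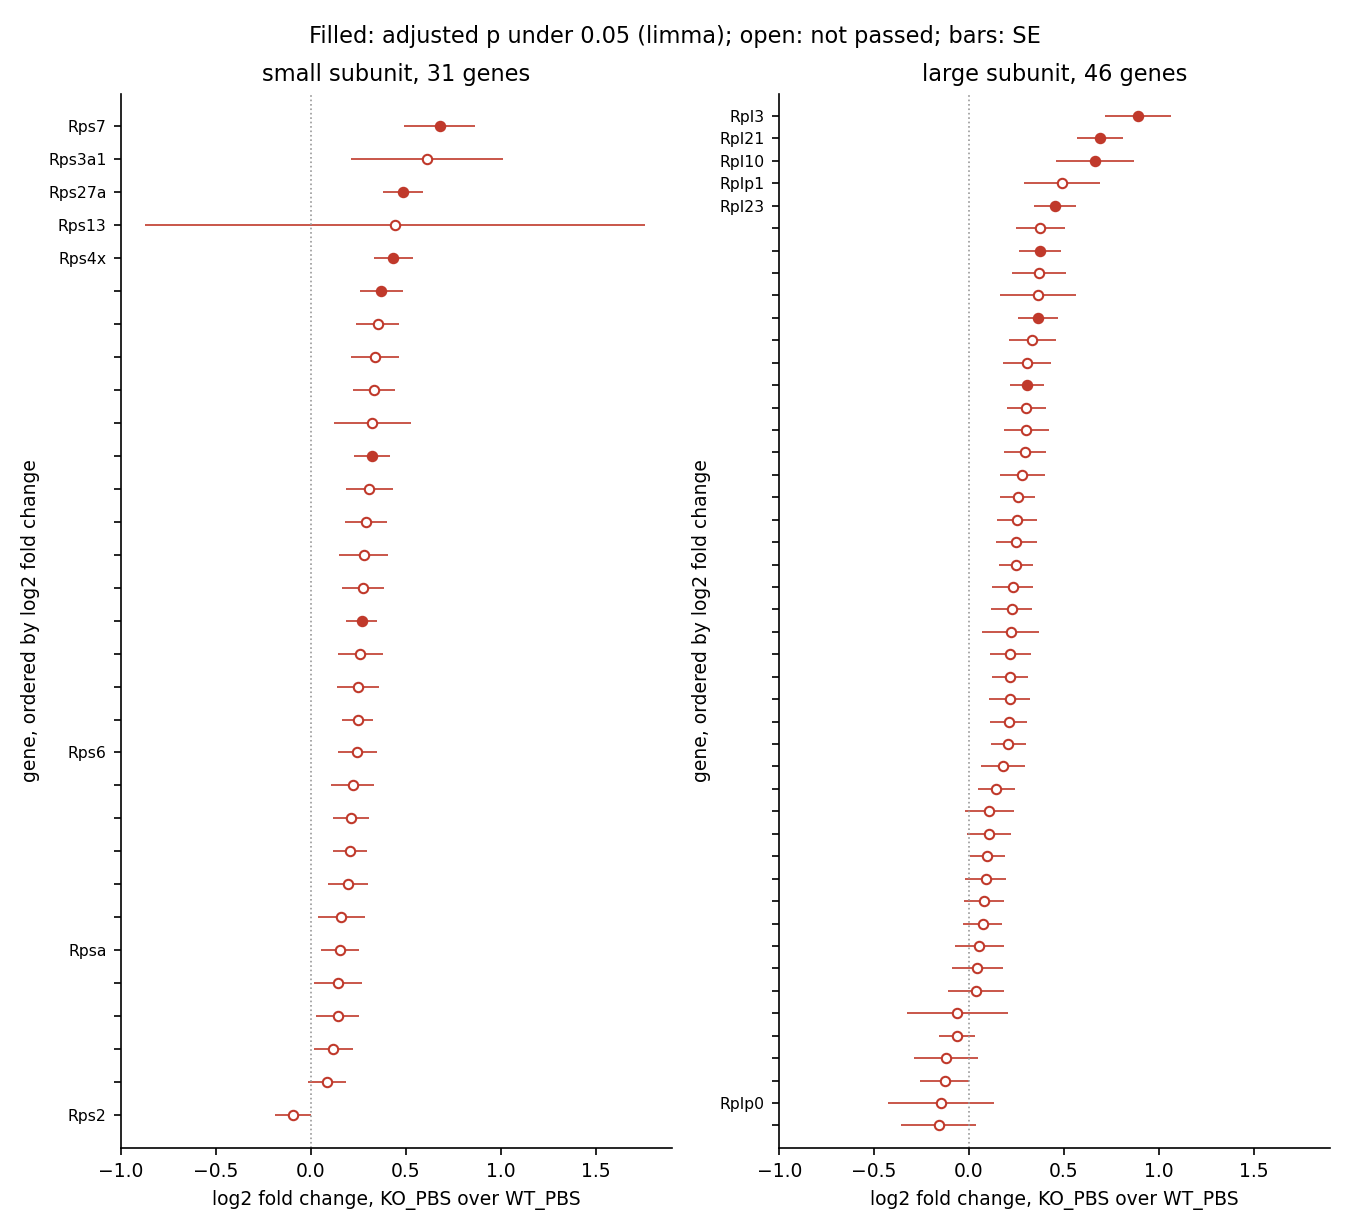
Log2 fold change (x axis) of each standard ribosomal protein gene (y axis, ordered by fold change, some named) in KO_PBS over WT_PBS, 31 small subunit genes at left and 46 large subunit genes at right, 3 mice a group. Filled points passed an adjusted p of 0.05 in limma and bars are SE; 30 small and 40 large subunit genes lie above 0, and Rps13 has the widest bar.

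Rpl3, which helps shape the peptidyl transferase centre, had the largest fold change of the members (chr15:80077791-80091868 on GRCm38, minus strand). Its normalized values were 105, 96.5 and 129.8 in KO_PBS, 90.7, 99.7 and 66.9 in KO_secGAA and 70.9, 55.0 and 52.4 in WT_PBS. Each KO_PBS library was above each WT_PBS library, and the KO_secGAA libraries overlapped both groups. The log2 fold change of KO_PBS over WT_PBS was 0.89 ± 0.17 (SE), with an adjusted p of 0.00593 in limma. The transcript shares 84.5% of its 61-base words with other annotated genes, none of which is in the table.

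Rpl21, another protein of the large subunit (chr5:146832890-146837032, plus strand), had the next largest fold change. Its values were 57.2, 71.9 and 56.6 in KO_PBS, 47.6, 51.4 and 52.1 in KO_secGAA and 32.9, 40.6 and 40.9 in WT_PBS. The 3 groups did not overlap, with KO_secGAA between the others. Its log2 fold change in KO_PBS over WT_PBS was 0.69 ± 0.12 (SE; adjusted p = 0.00344 in limma). It shares 54.1% of its 61-base words with other annotated genes. The share with BC004004, a gene of the table whose reads were not added to it, is 27.5%.

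Rps27a encodes a small subunit protein made as a fusion with ubiquitin (chr11:29545846-29548109, minus strand). Its values were 263, 237 and 233 in KO_PBS, 186, 243 and 229 in KO_secGAA and 170.4, 176 and 176 in WT_PBS. All knockout libraries, treated or not, lay above all wild-type libraries. It rose in KO_PBS by 0.49 ± 0.10 (SE; adjusted p = 0.00921 in limma). The Rps27a transcript shares 71.4% of its 61-base words with other annotated genes, none of which is in the table. Rpl3, Rpl21 and Rps27a were the members that passed in every one of the 9 fits that left out a library.

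Rps4x, the X-linked small subunit protein, stood at 372, 404 and 365 in KO_PBS, at 311, 377 and 402 in KO_secGAA and at 293, 269.8 and 280.1 in WT_PBS. Again every knockout library was above every wild-type library. Its log2 fold change in KO_PBS was 0.44 ± 0.10 (SE; adjusted p = 0.0149 in limma), and it did not pass without WT_PBS 3 or without KO_PBS 2. Rpl23, a large subunit protein at the face between the subunits that also binds Mdm2 when free of the ribosome, stood at 175, 171 and 155 in KO_PBS, at 123, 168 and 149 in KO_secGAA and at 125, 119 and 122 in WT_PBS. KO_PBS and WT_PBS did not overlap, while KO_secGAA 1 lay among the wild-type values. Its log2 fold change in KO_PBS was 0.45 ± 0.11 (SE; adjusted p = 0.0171 in limma), a call lost, at an adjusted p of 0.0596 or less, in the 4 fits that left out KO_PBS 1, KO_PBS 2, WT_PBS 2 or WT_PBS 3.

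The other named members that rose in KO_PBS did so by less, apart from Rps7 and Rpl10, whose reads are divided with copies and which are taken up below. Rpl13a, which also acts in silencing messenger RNAs of inflammation outside the ribosome, had values of 496, 519.6 and 444 in KO_PBS, 396, 509 and 445 in KO_secGAA and 384, 364 and 386 in WT_PBS. Its groups KO_PBS and WT_PBS did not overlap (log2 fold change 0.36, adjusted p = 0.0344 in limma). Rpl37rt, a retrotransposed copy of Rpl37, Rpl7, Rps15a, Rpl19 and Rps19, which is mutated in human Diamond-Blackfan anaemia, rose by 0.30 to 0.37 on the log2 scale, with adjusted p between 0.0347 and 0.0419 in limma. KO_PBS and WT_PBS did not overlap for any of these 5. Each of Rpl13a and these 5 lost its call in at least 5 of the 9 fits that left out a library, with adjusted p of 0.0933 to 0.143 at the highest. Rpl37rt also shares sequence with Rpl37. With the reads of both genes added, the log2 fold change was 0.32 and did not pass (adjusted p = 0.0668 in limma).

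Members that did not pass include several with separate roles. Rps6, the S6 kinase target, had a log2 fold change of 0.24 (adjusted p = 0.12 in limma), and all 3 KO_PBS libraries exceeded all WT_PBS libraries. Rpsa, which also serves as a laminin receptor, stood at 575 ± 41.6 in KO_PBS, 518 ± 50.3 in KO_secGAA and 517 ± 32.2 in WT_PBS (SD, n = 3), with overlapping groups. The stalk proteins recruit the elongation factors. Of these, Rplp2 stood at 229 ± 33.8 in KO_PBS, 225 ± 30.5 in KO_secGAA and 219 ± 11.9 in WT_PBS (SD, n = 3), also with overlap. Rplp1 stood at 529, 733 and 640.4 in KO_PBS, at 391, 503 and 728 in KO_secGAA and at 436, 456 and 452 in WT_PBS. KO_PBS lay above WT_PBS in every library, with a spread that kept its log2 fold change of 0.49 ± 0.20 (SE) from passing (adjusted p = 0.11 in limma). Rps2 was the only small subunit gene below 0, at -0.09 (adjusted p = 0.529 in limma). Rps19bp1 had a log2 fold change of 0.35 (adjusted p = 0.0658 in limma).

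Among the paralogs and copies, Rpl36al stood at 143, 139.9 and 119 in KO_PBS, at 116, 137 and 155 in KO_secGAA and at 130.2, 117 and 118 in WT_PBS, and Rps27l at 76.6, 68.8 and 77.9 in KO_PBS, at 58.0, 71.1 and 70.0 in KO_secGAA and at 72.6, 80.2 and 78.8 in WT_PBS. Both overlapped between groups, with log2 fold changes of 0.14 (adjusted p = 0.446) and -0.05 (adjusted p = 0.74) for KO_PBS over WT_PBS in limma. Rps4l, a paralog of Rps4x, was near the lower end of the table at 0.946 to 1.62 in KO_PBS, 1.43 to 2.32 in KO_secGAA and 1.59 to 2.78 in WT_PBS, with the lowest log2 fold change of the members, -0.65 (adjusted p = 0.108 in limma). Rps27rt reached at most 4.502 in any library. Rpl39-ps, at 27.2 to 41.2 in KO_PBS, 28.3 to 38.4 in KO_secGAA and 20.4 to 28.1 in WT_PBS, did not pass (0.35, adjusted p = 0.204 in limma).

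Rpl3l, the striated muscle paralog of Rpl3 (chr17:24727820-24736143, plus strand), was the only member that fell in KO_PBS. Its values were 462, 458 and 419 in KO_PBS, 471, 515 and 577 in KO_secGAA and 535, 597 and 631 in WT_PBS. All KO_PBS libraries lay below all others, and KO_secGAA overlapped WT_PBS. The log2 fold change of KO_PBS over WT_PBS was -0.40 ± 0.10 (SE; adjusted p = 0.0215 in limma). The call is lost, at adjusted p of 0.0901 or less, when KO_PBS 2, KO_PBS 3, WT_PBS 2 or WT_PBS 3 is left out, with quantile normalization (log2 fold change -0.22, adjusted p = 0.0581) and without scaling factors (-0.08, adjusted p = 0.457), a setting in which the median over all genes lies at 0.31. Rpl3l shares none of its 61-base words with another annotated gene.

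The balance between the paralogs can be read within each library, where the scaling cancels. Per kb of transcript, Rpl3l exceeded Rpl3 4.32-, 4.66- and 3.17-fold in KO_PBS, 5.11-, 5.08- and 8.48-fold in KO_secGAA and 7.42-, 10.7- and 11.9-fold in WT_PBS. As counted, Rpl3l stood above Rpl3 in all 9 muscles, and every KO_PBS ratio was below every WT_PBS and every KO_secGAA ratio. Rpl3 shares 84.5% of its 61-base words with other annotated genes and Rpl3l shares none. Whether reads of Rpl3 were lost to those genes was not tested, so the size of the ratio is uncertain. The mean ratio was 4.05 ± 0.78 in KO_PBS, 6.22 ± 1.96 in KO_secGAA and 9.98 ± 2.29 in WT_PBS (SD, n = 3). On the log2 scale the ratio in KO_PBS minus that in WT_PBS was -1.29, and that in KO_secGAA minus KO_PBS was 0.59. The exact two-sided permutation test gave p = 0.1 for each of these, the smallest value that 3 mice against 3 allow, and p = 0.2 for KO_secGAA minus WT_PBS (-0.69).

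**Figure D2:**
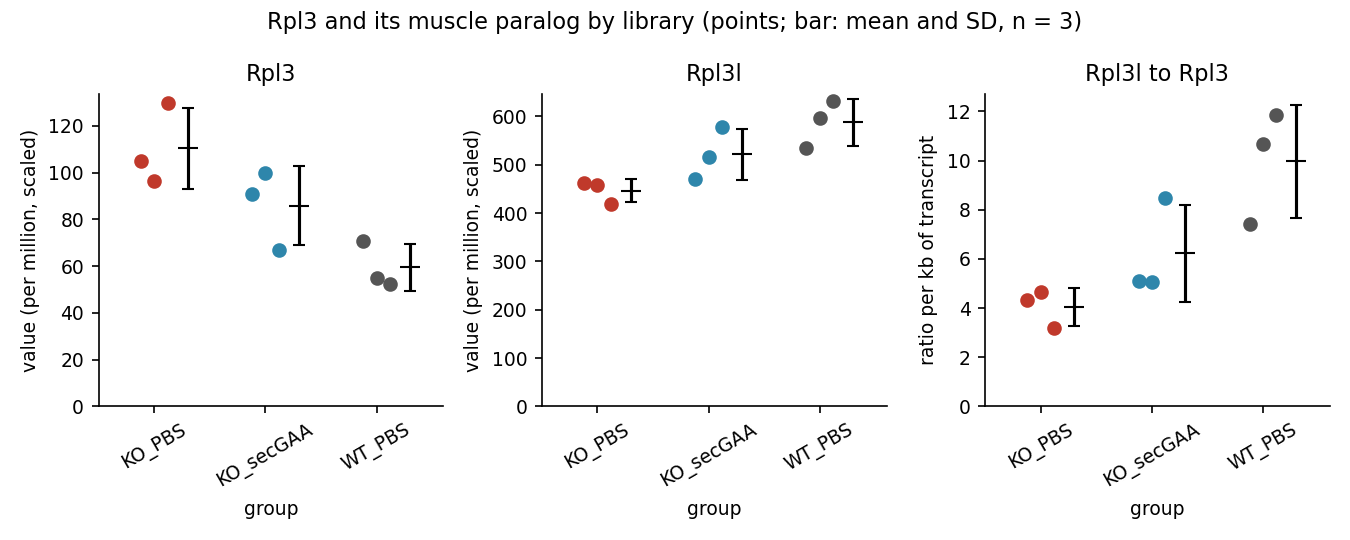
Normalized values of Rpl3 (left) and Rpl3l (middle) and their ratio per kb of transcript (right) in each of the 9 libraries, by group on the x axis; bars are the mean and SD of 3 mice. KO_PBS mice lie above WT_PBS mice for Rpl3 and below them for Rpl3l, with ratios of 3.17 to 4.66 in KO_PBS and 7.42 to 11.9 in WT_PBS.

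Rpl22l1, the paralog of the large subunit protein Rpl22, is left out by the name rule and was looked at beside Rpl3l. Its values were 38.4, 44.3 and 42.0 in KO_PBS, 54.4, 65.8 and 62.5 in KO_secGAA and 72.6, 55.7 and 61.4 in WT_PBS. KO_PBS lay below both other groups without overlap. It fell in KO_PBS against WT_PBS by 0.59 ± 0.12 (SE) on the log2 scale (adjusted p = 0.0062 in limma) and rose in KO_secGAA against KO_PBS by 0.54 ± 0.12 (SE; adjusted p = 0.037 in limma). Without scaling factors the values were -0.28 (adjusted p = 0.0998) and 0.39 (adjusted p = 0.0858), and neither passed. The rise in KO_secGAA also does not pass without WT_PBS 3, any KO_PBS library, KO_secGAA 2 or KO_secGAA 3 (adjusted p of at most 0.123). Rpl22 itself stood 0.25 above WT_PBS in KO_PBS (adjusted p = 0.134 in limma).

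Reads of 61 bases cannot always be placed between a ribosomal protein gene and its processed pseudogenes. At least some 61-base words are shared with another annotated gene by 76 of the 77 standard members, and at least 50% of the words by 46 of them. For 40 standard members a gene of the table shares enough sequence that their reads were added together as an alternative chosen after seeing the data. For several members the division between gene and copy differed among libraries of the same group.

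Rps3a1, a small subunit protein gene with 2 copies in the table, stood at 282, 134 and 125 in KO_PBS, at 400.0, 305 and 129 in KO_secGAA and at 110.3, 114 and 105 in WT_PBS. Its copy Rps3a2 stood at 95.1, 208 and 208 in KO_PBS, at 0.0461, 105 and 211 in KO_secGAA and at 160.2, 146 and 173 in WT_PBS. In KO_secGAA 1 the reads lay on Rps3a1, with 0 on Rps3a2, whose 0.0461 is the value given to no read, and a value of 0.507 for Rps3a3. Summed over the 3 genes, the values were 472, 522 and 501 in KO_PBS, 400.5, 502 and 510.2 in KO_secGAA and 419, 401 and 424 in WT_PBS. The summed KO_PBS values exceeded the summed WT_PBS values in every library, with a log2 fold change of 0.26 ± 0.10 (SE; adjusted p = 0.0962 in limma).

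Rps7, a small subunit protein that also binds Mdm2, was the only member that rose in KO_secGAA against WT_PBS, and it shares its reads with the transcribed pseudogene Gm6472. Rps7 alone stood at 87.2, 150.3 and 150.7 in KO_PBS, at 164, 194 and 195 in KO_secGAA and at 79.6, 76.5 and 78.5 in WT_PBS. Gm6472 stood at 186, 154 and 132 in KO_PBS, at 65.6, 68.4 and 71.0 in KO_secGAA and at 134, 141 and 151 in WT_PBS. Rps7 was highest and Gm6472 lowest in the 3 KO_secGAA libraries. Together they came to 273, 304 and 282 in KO_PBS, to 230.0, 263 and 266 in KO_secGAA and to 213, 217 and 229.9 in WT_PBS. For KO_secGAA over WT_PBS the log2 fold change was 1.23 for Rps7 alone (adjusted p = 0.0106 in limma) and 0.20 for the sum (adjusted p = 0.212). For KO_PBS over WT_PBS it was 0.68 for Rps7 alone (adjusted p = 0.0274) and 0.38 for the sum (adjusted p = 0.0111), both by limma. In KO_PBS, Rps7 alone did not pass in 5 fits, which left out KO_PBS 2, KO_PBS 3 or any WT_PBS library (adjusted p of 0.101 or less in limma). It also did not pass there with only the 2 groups compared (adjusted p = 0.0501 in limma). In KO_secGAA it did not pass without WT_PBS 3 (adjusted p = 0.0512 in limma).

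Rps13 alone ranged from 6.49 to 78.1 in KO_PBS, from 3.9995 to 59.6 in KO_secGAA and from 2.85 to 63.9 in WT_PBS. Most of its reads lay on Rps13-ps1, and with Rps13-ps2 added the values were 206, 189 and 169.9 in KO_PBS, 158, 204 and 187 in KO_secGAA and 164, 169 and 162 in WT_PBS. The coefficient of variation fell to 9.55% in KO_PBS, 12.8% in KO_secGAA and 2.16% in WT_PBS with the sum, against 128%, 142% and 131% in the same groups for Rps13 alone. Rpl5, Rpl12 and Rps12 were counted at 5.94 to 19.4 in every library, while Gm15500, Gm10275 and Rps12-ps3, their copies, stood at 192 to 379.5.

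Rplp0, the base of the stalk, stood at 1141, 576 and 712 in KO_PBS, at 436.5, 529 and 737 in KO_secGAA and at 639.97, 1017 and 973 in WT_PBS. With Gm8730 and Gm9625 the sums were 1141, 938 and 874 in KO_PBS, 730.0, 886 and 906 in KO_secGAA and 792, 1017 and 974 in WT_PBS. The groups overlapped either way. Rpl10, which joins the large subunit late and readies it for meeting the small one, stood at 292, 306 and 221 in KO_PBS, at 215, 241 and 266 in KO_secGAA and at 241, 136 and 152 in WT_PBS. With Rpl10-ps3 the values were 438, 447 and 417 in KO_PBS, 353, 425 and 440.1 in KO_secGAA and 339, 269 and 275 in WT_PBS. Alone, KO_PBS and WT_PBS overlapped for Rpl10, and it passed with a log2 fold change of 0.66 (adjusted p = 0.0438 in limma). The call was not made by edgeR (adjusted p = 0.059) or by limma with only the 2 groups compared (adjusted p = 0.0724). It was also lost in 7 of the 9 fits that left out a library. Summed, KO_PBS and WT_PBS did not overlap, and the log2 fold change was 0.56 (adjusted p = 0.00691 in limma).

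**Figure D3:**
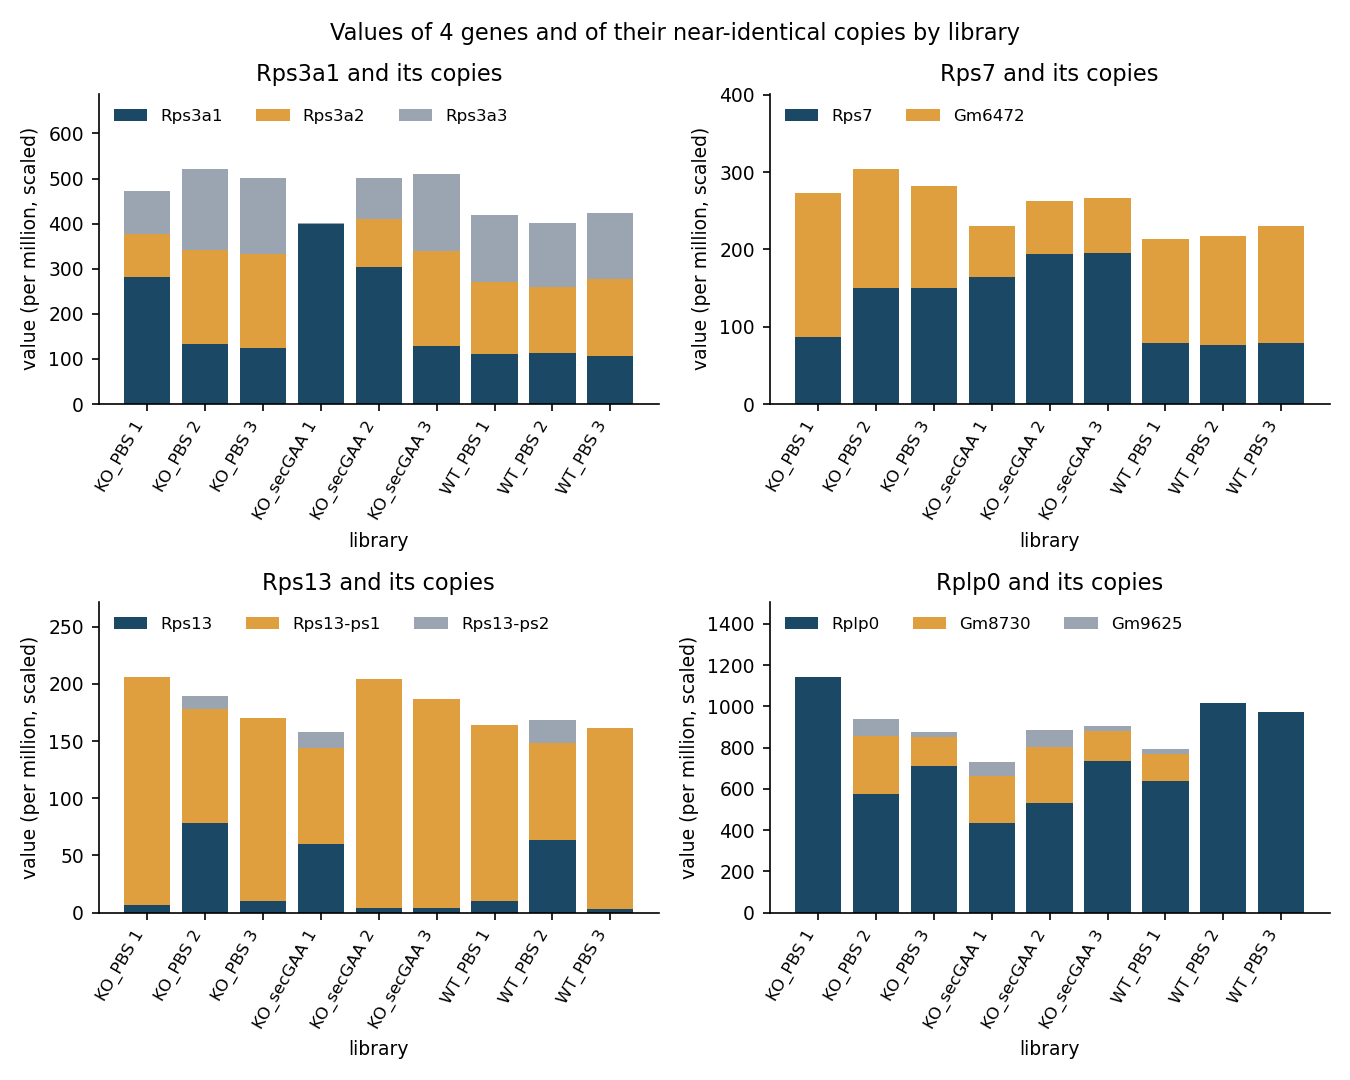
Stacked normalized values (y axis) of Rps3a1, Rps7, Rps13 and Rplp0 and of the copies that share sequence with them in each of the 9 libraries (x axis). The split of Rps3a1 from its copies differs among libraries of KO_PBS and of KO_secGAA. For Rps7 the split is steadier within WT_PBS and within KO_secGAA and differs between them. The height of the stack for Rps3a1 is 472 to 522 in KO_PBS, 400.5 to 510 in KO_secGAA and 401 to 424 in WT_PBS.

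With reads summed with copies, fewer of the 77 standard genes lay below 0. In KO_PBS over WT_PBS, 76 of 77 lay above 0, all 46 large subunit genes and 30 of 31 small subunit genes, with Rps2 the exception at -0.09. Of the 77, 16 rose, 7 of the small and 9 of the large subunit, where 11.0% of all genes rose and 11.1% fell in that fit; the median was 0.25 for each subunit. Rpl17, Rpl36a and Rps23 rose with their copies and did not pass alone. Rpl37rt rose alone, and its sum with Rpl37 did not pass. The 3 KO_PBS libraries all lay above the 3 WT_PBS libraries for 60 of the 77, where this held for 20.7% of all genes in the summed table.

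The ratio of the large to the small subunit sum turned on the same point. With genes alone it was 1.43, 1.40 and 1.42 in KO_PBS, 1.30, 1.35 and 1.46 in KO_secGAA and 1.45, 1.47 and 1.49 in WT_PBS. Every KO_PBS ratio lay below every WT_PBS ratio. With reads summed with copies it was 1.49, 1.52 and 1.51 in KO_PBS, 1.502, 1.48 and 1.55 in KO_secGAA and 1.51, 1.504 and 1.52 in WT_PBS. The 3 groups then overlapped, with means of 1.51 ± 0.01 in KO_PBS, 1.51 ± 0.03 in KO_secGAA and 1.51 ± 0.01 in WT_PBS (SD, n = 3).

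**Figure D4:**
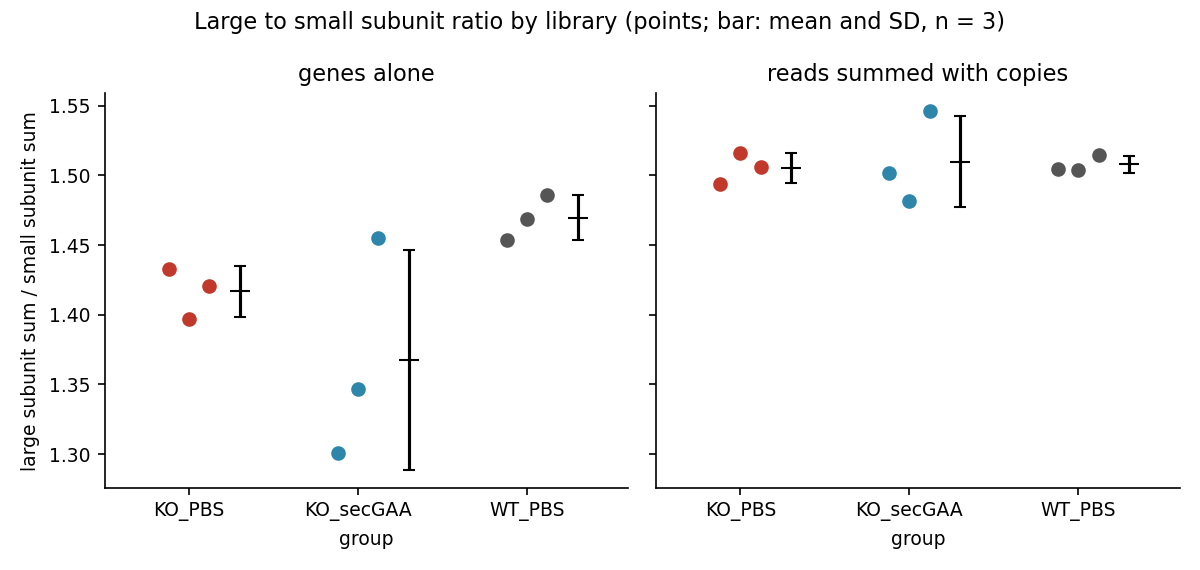
Ratio of summed normalized values of large to small subunit genes (y axis, not starting at 0) in each library by group, for genes counted alone (left) and with their copies' reads added (right); bars are the mean and SD of 3 mice. Alone, KO_PBS lies at 1.40 to 1.43 below WT_PBS at 1.45 to 1.49; with copies all group means are 1.51.

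KO_secGAA muscles did not differ from KO_PBS muscles in any member by the test. None of the 87 rose or fell, where 1.37% of all genes rose and 2.31% fell; edgeR, DESeq2 and voom also called none, and 3 members had an unadjusted p under 0.05 in limma. These were Rps7 with a log2 fold change of 0.55, Rpl21 with -0.29 and Rpl37rt with -0.25, none with an adjusted p under 0.144. With the reads of Gm6472 added, the value of Rps7 turned to -0.18 (adjusted p = 0.277 in limma). The median over members was -0.08, with -0.09 for small and -0.08 for large subunit genes, and 0.00 over all genes. Of the 77 standard genes 14 lay above 0. The groups did not overlap for 5 members, 2 with higher and 3 with lower KO_secGAA values, where all KO_secGAA values were higher for 11.7% and lower for 12.3% of all genes. With reads summed with copies none of the 77 passed either, where 1.38% of all genes rose and 2.37% fell.

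This median rests on KO_secGAA 1. Relative to the WT_PBS mean, the median standard gene stood at 0.27, 0.27 and 0.18 in KO_PBS, at -0.08, 0.29 and 0.23 in KO_secGAA and at -0.01, 0.01 and 0.01 in WT_PBS, on the log2 scale. KO_secGAA 2 and 3 lay in or above the range of KO_PBS, and KO_secGAA 1 lay below every wild-type library. Of the 77 standard genes, 13 in KO_secGAA 1, 70 in KO_secGAA 2 and 64 in KO_secGAA 3 were above the highest WT_PBS value, against 70, 69 and 54 in KO_PBS. Without KO_secGAA 1 the median member stood 0.03 above KO_PBS, and still none passed. In KO_secGAA 1 the macrophage markers summed to 239.7 and those of satellite cells and regenerating fibres to 120.0, compared with 319 and 154 for the macrophage sum and 155 and 126 for the other sum in KO_secGAA 2 and 3. Their part in its low ribosomal protein values was not tested.

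The 3 comparisons share libraries, so each set of values is given on its own. Against WT_PBS, Rps7 was the only member of 87 that rose in KO_secGAA and none fell, where 1.83% of all genes rose and 1.89% fell. The median log2 fold change was 0.15 over the members, 0.16 for each subunit and 0.00 over all genes, and 69 of 77 standard genes lay above 0. No overlap with higher values in KO_secGAA was found for 13 of 87 members, or 14.9%, against 13.5% of all genes. Without KO_secGAA 1 the median was 0.26, and 4 members rose, Rpl36a, Rps18, Rps4x and Rps7. That is 4.6% of the members, where 0.787% of all genes rose in that fit. With reads summed with copies none of the 77 rose or fell, Rps7 included, where 1.97% of all genes rose and 2.06% fell, and 73 of 77 lay above 0 with a median of 0.16.

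**Figure D5:**
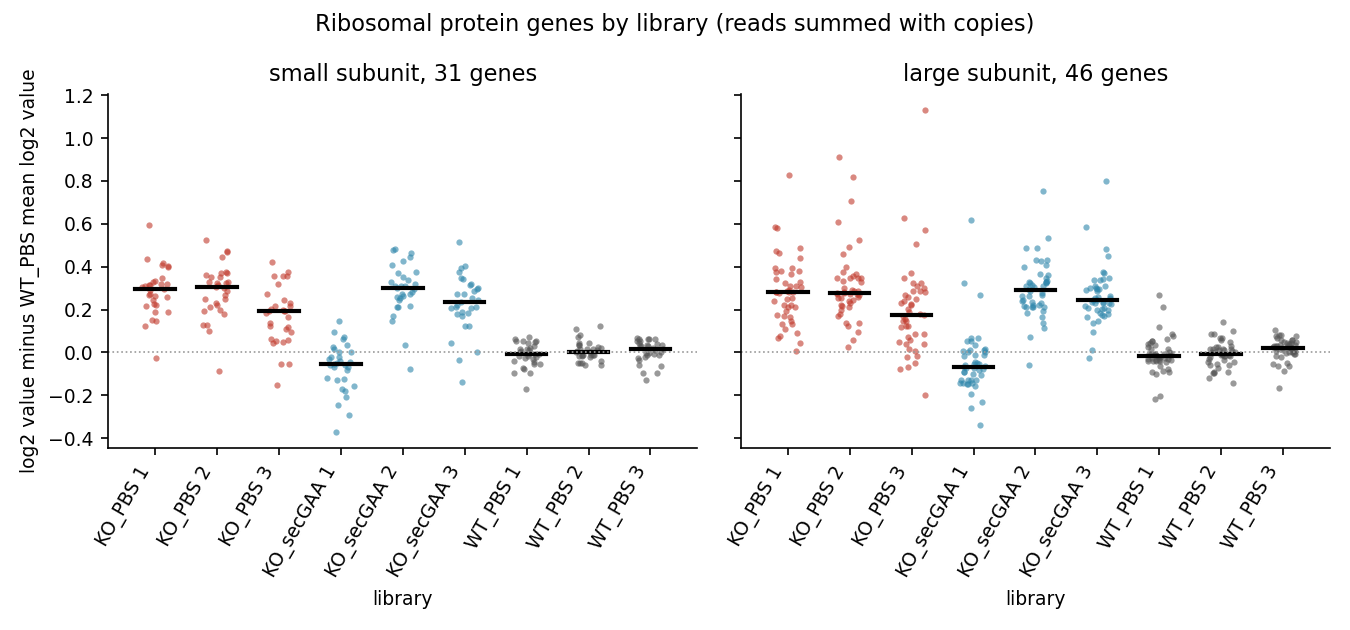
Log2 normalized value minus the WT_PBS mean (y axis) for 31 small and 46 large subunit genes in each of the 9 libraries (x axis), reads summed with copies; points are genes and black lines medians. Over all 77 genes the median lies at 0.18 to 0.29 in KO_PBS, at -0.06, 0.29 and 0.24 in KO_secGAA and near 0 in WT_PBS.

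Genes that build and use ribosomes were less uniform in KO_PBS against WT_PBS. The lists were chosen with results of these data known. Of 5 ribosomal proteins outside the name rule none rose and 1, Rpl22l1, fell. Over all genes tested, 10.9% rose and 11.0% fell in this comparison, and the counts of these lists are to be read against those shares. Of 18 tested genes of pre-rRNA transcription 3 rose and none fell. These were Polr2e, a subunit shared by the 3 nuclear RNA polymerases, with a log2 fold change of 0.55 (adjusted p = 0.00222), Taf1d, a part of the promoter selectivity factor, with 0.65 (adjusted p = 0.0142), and Polr1c, shared by polymerases I and III, with 0.47 (adjusted p = 0.021), all by limma. The median over the 18 was 0.05.

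Of 68 tested genes of ribosome assembly, within the nucleolus or after it, 4 rose and none fell. This is a smaller share of risen genes than the 10.9% of all genes, and the median log2 fold change was 0.10. Npm1, the nucleolar chaperone nucleophosmin, stood at 134 ± 7.88 in KO_PBS, 127 ± 14.7 in KO_secGAA and 86.8 ± 7.26 in WT_PBS (SD, n = 3). It rose in KO_PBS by 0.62 (adjusted p = 0.00289) and in KO_secGAA against WT_PBS by 0.55 (adjusted p = 0.0231) in limma; the call against WT_PBS in KO_secGAA does not pass without WT_PBS 2, WT_PBS 3, KO_secGAA 2 or KO_secGAA 3 (adjusted p of at most 0.0985). Sbds, which readies the large subunit for translation, rose by 0.56 (adjusted p = 0.0105), Utp20, a processing factor for 18S rRNA, by 0.48 (adjusted p = 0.0313) and Nvl, an assembly ATPase, by 0.46 (adjusted p = 0.037) in limma.

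Of 14 elongation and termination genes 2 rose and 1 fell. Eef1a1, the form of elongation factor 1 alpha found in most tissues, stood at 1590.4 ± 178 in KO_PBS, 1125 ± 268 in KO_secGAA and 371 ± 66.0 in WT_PBS (SD, n = 3). Eef1a2, the form that takes its place in adult muscle, stood at 1525 ± 181 in KO_PBS, 1728 ± 72.2 in KO_secGAA and 2002 ± 50.8 in WT_PBS (SD, n = 3). Eef1a1 rose in KO_PBS against WT_PBS by 2.11 (adjusted p = 7.6e-05) and in KO_secGAA against WT_PBS by 1.59 (adjusted p = 0.00291). Eef1a2 fell in KO_PBS by 0.40 (adjusted p = 0.0263), a call not made without scaling factors (-0.08, adjusted p = 0.531), with quantile normalization (-0.14, adjusted p = 0.416), or without WT_PBS 3 or KO_PBS 3 (adjusted p of at most 0.0935), all in limma. The call of Eef1a2 was also lost with only the 2 groups compared (adjusted p = 0.0511 in limma). Eef1b2, which reloads the factor with GTP, rose by 0.35 (adjusted p = 0.0293 in limma). Polr1c, Utp20 and Eef1b2 each lost the call in 3 to 5 of the 9 fits that left out a library (adjusted p up to 0.0951). Whether copies of Eef1a1, Npm1 and the other genes of these lists take part of their reads was not examined.

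Of 41 initiation genes 4 rose and 4 fell, near the 10.9% and 11.0% of all genes, with a median of -0.01. Eif4ebp1, the repressor of cap-dependent initiation that mTORC1 controls, rose by 1.55 (adjusted p = 0.00203), and the helicase Eif4a1 rose by 0.58 (adjusted p = 0.00942) in limma. Eif4g3, a scaffold of the cap-binding complex, rose by 0.43 (adjusted p = 0.02 in limma), a call lost without KO_PBS 3, WT_PBS 2 or WT_PBS 3 (adjusted p of 0.0503 to 0.0691). Eif4a2, the paralog of Eif4a1, fell by 0.29 (adjusted p = 0.0427 in limma), with a sign that turns without scaling factors (0.03), and Pabpc4, a poly(A)-binding protein, fell by 0.32 (adjusted p = 0.0274 in limma), with a value of -0.003 without scaling factors. The call of Pabpc4 is also lost with quantile normalization (adjusted p = 0.0603) and in 4 of the 9 fits that left out a library (adjusted p of at most 0.11). The call of Eif4a2 is also lost in edgeR (adjusted p = 0.051), with quantile normalization (adjusted p = 0.106) and in 7 of the 9 fits that left out a library. With only the 2 groups compared Eif4a2 did not pass either (adjusted p = 0.0586 in limma). Eif2s2, the beta subunit of initiation factor 2, fell by 0.35 (adjusted p = 0.0161), and without scaling factors its value was -0.03 (adjusted p = 0.781 in limma). It also did not pass without KO_PBS 2 (adjusted p = 0.0634) or WT_PBS 3 (adjusted p = 0.0726).

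Markers of other cell types were compared in the same way, beside the 10.9% of all genes that rose and the 11.0% that fell. In bulk muscle, fewer cells of a type and less RNA per cell cannot be told apart. Of 10 satellite cell and regenerating fibre markers 6 rose in KO_PBS against WT_PBS, with sums of 164 to 269 in KO_PBS, 120.0 to 155 in KO_secGAA and 69.4 to 104 in WT_PBS. Ncam1, a cell adhesion molecule of denervated and regenerating fibres, rose by 2.99 (adjusted p = 3.9e-05 in limma), and Myl4, an embryonic myosin light chain, by 3.23 (adjusted p = 0.000384 in limma). Of 15 macrophage markers 4 rose, with sums of 263 to 387 in KO_PBS, 154 to 319 in KO_secGAA and 111 to 183 in WT_PBS, and Cd68, a lysosomal protein of macrophages, rose by 1.94 (adjusted p = 0.000383 in limma). Of 10 skeletal muscle fibre markers 1, Des, rose and 5 fell, and their sums were 118370 to 137090 in KO_PBS, 144860 to 160190 in KO_secGAA and 163270 to 189170 in WT_PBS. Of those that fell, Tnni2 and Ttn lay above 0 with quantile normalization (0.07 each), and Pvalb, at -0.04, did not pass there (adjusted p = 0.868). Without scaling factors Tnni2, Ttn and Pvalb did not pass in limma (adjusted p of 0.102, 0.556 and 0.0538). Ttn also lost its call with only the 2 groups compared (adjusted p = 0.0653). Of the 9 fits that left out a library, the call was lost in 8 for Ttn, 3 for Tnni2 and 1 for Pvalb. Des lost its call in 3 of the 9 fits that left out a library. Of 10 fibroblast markers 1 rose, of 8 endothelial markers 3 fell, and of the 2 lymphocyte markers measured Cd3e fell. The endothelial markers, Esam, Tie1 and Pecam1, did not pass without scaling factors (adjusted p of 0.141, 0.21 and 0.657). Tie1 also lost its call in 3 and Pecam1 in 5 of the 9 fits that left out a library. Cd3e did not pass without scaling factors (adjusted p = 0.0647), in edgeR (adjusted p = 0.051), with only the 2 groups compared (adjusted p = 0.0555) or in 6 of the 9 fits that left out a library. The fibre markers were high in all 9 libraries, as the labelled tissue has it. Mitochondrial transcripts took 9.85 to 10.7% of reads in KO_PBS, 11.4 to 12.2% in KO_secGAA and 11.6 to 17.0% in WT_PBS. The part of these cells and transcripts in the ribosomal protein values was not tested.

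Levels differed far more between members than between groups. Per kb of transcript, the median standard gene stood at 305 in KO_PBS, 295.5 in KO_secGAA and 251 in WT_PBS, with quartiles of 116 and 372 in WT_PBS. Among the highest in WT_PBS were Rplp1 at 898, Rplp0 at 646 and Rps15 at 571 per kb. The lowest were Rpl5 at 5.52, Rpl12 at 6.64 and Rps12 at 25.3, the members whose reads lay on copies. Members are spread over 19 chromosomes, with the largest number, 14 of 87, on chromosome 7.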

How the data were processed

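RNA of quadriceps muscle was sequenced as single-end reads of 61 bases, per the labels' protocols, with polyadenylated RNA and a NEBNext Ultra kit. The submitters' processing notes name the build GRCm38 and, without roles or versions, edgeR, limma, RSEM, cutadapt and CASAVA; whether counting used strand is not stated in them. The deposited table holds a normalized signal. Taken as reads plus 0.5 per 1000000 of a TMM-scaled library size, 100% of its 118044 values gave whole reads (tolerance 1e-06).

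Limma 3.58.1 (R 4.3.3), the test set for a normalized table, was fitted to log2(signal + 0.5) of all 9 libraries with group means and a trended prior, for the 13089 genes whose signal reached 1 in 3 libraries or more, with Benjamini-Hochberg adjustment over these. The count tests edgeR 4.0.16 and DESeq2 1.42.0 were run on the recovered reads as alternatives. Copies were genes sharing at least 10% of 61-base words both ways in GENCODE M21 transcripts; 8 other genes sharing sequence were not added. The members and all lists were chosen with earlier results of these data known. Members named are Rpl3, Rpl3l, the stalk genes, Rpsa, members named as paralogs, up to 10 a direction by smallest p and the 2 at each end of the fold changes; up to 3 called genes a direction come from each list. Rpl10, Rpl19, Rps19, Rps2, Rps6, Rpl22, Rps19bp1, Nvl, the copy families and members named by level or by a changed call were chosen after their values were seen. Nothing says whether the 3 libraries of a group share a litter or day, and p-values measure the spread between these libraries. Precision is limited by 3 mice a group; 1 read was worth 0.0652 to 0.0922. Alternatives were other scaling, pseudocounts, filters, tools and groups, each library left out and, added after seeing the data, reads summed with copies. Some members enter the counts and are not reported by name here. The fit was tested on simulated data.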

Additional observations from a re-analysis of the deposited data

How the results depend on the processing

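For KO_PBS against WT_PBS, the 14 risen members became 72 without scaling factors, 44 with quantile normalization and 25 with only the 2 groups compared; the 1 fallen member became 0 in the first and second of these. The median member was then 0.56 in unscaled values, and that of all genes 0.31. There 34.1% of all genes rose, and the members stood 0.25 above all genes, against 0.23 in the scaled values. With quantile normalization 10.7% of all genes rose and 11.0% fell. Other tools gave 12 (edgeR), 19 (DESeq2) and 13 (voom) risen members. The shares of all genes in these tools and with only the 2 groups compared are not given here, so those counts have no background beside them. Leaving out a library gave 3 to 31 risen and 0 to 2 fallen members. In those fits 6.94 to 11.0% of all genes rose, and 835 to 1401 of the 13089 fell.

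For KO_secGAA against KO_PBS, 3 members fell and the median was -0.23 without scaling factors, where 6.55% of all genes fell and their median was -0.14; leaving out a library gave 0 calls and medians of -0.14 to 0.03. For KO_secGAA against WT_PBS, the 1 risen member became 20 without scaling factors (median 0.32, where 6.63% of all genes rose and their median was 0.16), 3 with quantile normalization, 2 in DESeq2, 0 with reads summed with copies, and 0 to 4 when a library was left out. Of all genes, 1.87% rose with quantile normalization, 1.97% with reads summed with copies and 0.458 to 2.12% when a library was left out. The share of all genes in DESeq2 is not given here, so the count of 2 has no background beside it. Without scaling factors the log2 ratios of the summed small and large subunit values were 0.57 and 0.52 for KO_PBS over WT_PBS, -0.21 and -0.26 for KO_secGAA over KO_PBS, and 0.36 and 0.26 for KO_secGAA over WT_PBS. In KO_PBS against WT_PBS the sign turned for Eif4a2 without scaling factors (0.031) and for Tnni2 (0.070) and Ttn (0.068) with quantile normalization. The cause was not tested. No paired analysis was possible because the labels hold no replicate numbers or pairing between groups.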
